A study of Rattus norvegicus with 12 samples.

Results

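The 5 genes described here are *Cldn11*, *Igfbp2*, *Foxc1*, *Ptgds* and *Mgp*, known as markers of the leptomeninges and of the arachnoid barrier. They were chosen by name for that role, with earlier results of these data known, and are 5 of 17941 genes counted and of 13618 genes tested. All 5 were among the genes tested. RNA was measured in 12 cultures of astrocytes (ASTRs) from the brains of young adult female Wistar rats. Of these, 6 cultures came from the cerebral cortex, after removal of the meninges (gmASTRs). The other 6 came from the remaining non-cortical tissue without the amygdala (wmASTRs), which is mainly white matter but includes hippocampus, thalamus and basal ganglia. Removal of meninges is stated for the cortex and is not stated for the non-cortical tissue.

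An animal used for the cultures gave both kinds together, and each group comprised 6 independent preparations. Cultures were made without a shake-off step, kept for 20 days in similar conditions and passaged at least once. No group carried a transgene or received a treatment. The labelled cell type was checked against 12 astrocyte genes, of which 6 had a name in these data. *Gja1*, the main gap junction protein of astrocytes, which meningeal cells also make, reached 4789 ± 627 CPM (a count scaled by the total of its library; SD, n = 6) in gmASTRs, against 4366 ± 1241 in wmASTRs. *Gfap*, the intermediate filament that defines astrocytes, had 0 counts in all 6 gmASTR libraries and 1.39 to 10.6 CPM in wmASTRs. *Aqp4*, the water channel of astrocyte endfeet, had at most 0.813 CPM in gmASTRs and 2.36 to 5.10 CPM in wmASTRs. Of these defining markers, *Gfap* was thus at 0 in gmASTRs, where the limit that 3 counts set lay between 0.472 and 0.610 CPM. The other named astrocyte genes, given after their values were seen, had low mean levels in gmASTRs, with 20.8 ± 7.26 CPM against 12.7 ± 4.77 in wmASTRs for *Aldoc*, 8.21 ± 4.03 CPM against 21.3 ± 8.46 for *Slc1a3* and 3.75 ± 2.46 CPM against 1.80 ± 1.42 for *Fgfr3* (SD, n = 6 each). Transcript levels alone were measured here, not protein. By western blot the study found GFAP protein in both groups, with more in wmASTRs. It judged both kinds of culture to be highly pure astrocytes. This rested on high transcript levels of most astrocyte genes, such as *Vim*, and low levels for other cell types.

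The leptomeninges are the arachnoid and the pia, the thin inner coverings of the brain. Arachnoid barrier cells are joined by tight junctions and close the cerebrospinal fluid off from the vessels of the dura, while pial and arachnoid fibroblasts lay down matrix, bind growth factors and make retinoic acid. Meningeal cells lie on the cortical surface and are known to grow in primary cultures of brain cells.

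Between 4920488 and 7207118 reads were counted on genes per library, and the totals of both groups did not differ beyond their spread (p = 0.216, two-sided exact permutation test). The library kit reads transcript ends, so that a count does not grow with transcript length, and CPM were not divided by length. Whether genes differ in how fully their ends are counted was not tested. An order of different genes by CPM is thus a description only. Of all genes tested, 8.64% were called at a false discovery rate (FDR) under 0.05 in the quasi-likelihood test of edgeR, 3.88% as higher in gmASTRs and 4.75% as higher in wmASTRs. The median log2 fold change (log2FC, positive for more transcript in gmASTRs) of all genes tested was -0.0040.

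All 5 marker genes were called, 3 as more abundantly expressed in gmASTRs and 2 as more abundantly expressed in wmASTRs. Thus the markers did not move in 1 direction. *Cldn11*, *Igfbp2* and *Foxc1* were higher in gmASTRs, and *Ptgds* and *Mgp* were higher in wmASTRs. In 3 of the 5, *Cldn11*, *Igfbp2* and *Mgp*, the libraries of both groups did not overlap, which held for 4.54% of all genes tested, 2.03% with gmASTRs higher and 2.5% with wmASTRs higher. As these are bulk samples, fewer cells of a type and less RNA per cell cannot be told apart.

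**Figure D1:**
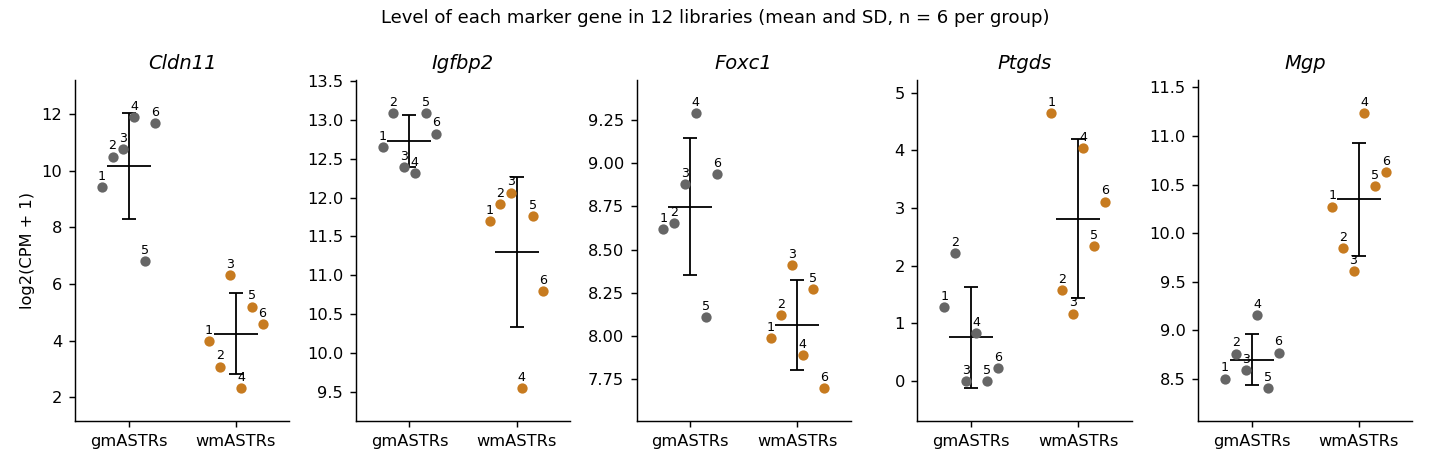
Level of each marker gene as log2(CPM + 1) in every library, with the replicate number beside each point and the mean and SD of the 6 libraries as a bar. *Cldn11*, *Igfbp2* and *Mgp* separate both groups fully, *Foxc1* and *Ptgds* overlap, and gmASTR replicate 5 is the lowest gmASTR library for *Cldn11*, *Foxc1* and *Mgp*.

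*Cldn11* (ENSRNOG00000010263) encodes claudin-11, the tight junction protein of arachnoid barrier cells and also of the myelin of oligodendrocytes. In gmASTRs it ranged from 112 CPM over a median of 1599 to 3774 CPM, and in wmASTRs from 4.05 over 19.0 to 79.4 CPM. The lowest gmASTR library, replicate 5, thus lay above the highest wmASTR library, replicate 3, although at a small fraction of the other gmASTR libraries. The means were 1842 ± 1433 and 27.5 ± 27.9 CPM (SD, n = 6 each), a ratio of 67.1. The log2FC was 5.98 (SE 0.71, FDR = 2.08e-05), and *Cldn11* ranked 17 by log2FC towards gmASTRs among all genes tested. The exact permutation test of log2(CPM + 1) gave p = 0.00216 (two-sided), the smallest p that 924 divisions of 12 libraries can give.

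*Cldn11* also varied most within gmASTRs of the 4 markers with counts in every library. Its highest gmASTR library held 33.8 times the CPM of its lowest, against 1.71 times for *Igfbp2*, 2.28 times for *Foxc1* and 1.69 times for *Mgp*. In wmASTRs the highest library held 19.6 times the lowest. Since claudin-11 is also a myelin protein, the oligodendrocyte list was set beside it, of which 4 of 12 genes had a name. *Mbp*, which encodes myelin basic protein, had 0 to 3.25 CPM in gmASTRs, where *Cldn11* was high, and 5.10 to 30.6 CPM in wmASTRs, where it was low. *Myrf*, a transcription factor of myelinating oligodendrocytes named after its values were seen, went the other way, with 0.947 to 19.1 CPM in gmASTRs and 1.39 to 5.49 CPM in wmASTRs, and was called higher in gmASTRs (log2FC 2.05, SE 0.54, FDR = 0.0185). The summed level of the 4 genes was 0.947 to 19.9 CPM in gmASTRs and 12.0 to 56.7 CPM in wmASTRs. *Mbp* was at 0 in gmASTR replicates 4, 5 and 6, and *Cldn11* had its 2 highest levels, 3774 and 3277 CPM, in replicates 4 and 6 and its lowest gmASTR level in replicate 5. The part of oligodendrocytes in the *Cldn11* result was not tested.

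*Igfbp2* (ENSRNOG00000016957) encodes a secreted protein that binds insulin-like growth factors and is made by leptomeningeal cells, and also by astrocytes. By mean and median it had the highest level of the 5 markers in both groups, although *Mgp* was above it in wmASTR replicate 4. In gmASTRs it ranged from 5105 over 6831 to 8713 CPM and in wmASTRs from 751 over 3392 to 4281 CPM. All gmASTR libraries lay above all wmASTR libraries, and wmASTR replicates 4 and 6 lay below the other 4. Means were 6928 ± 1575 and 2910 ± 1358 CPM (SD, n = 6 each), a ratio of 2.38. The log2FC was 1.21 (SE 0.27, FDR = 0.00602), with p = 0.00216 in the exact permutation test (two-sided).

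*Foxc1* (ENSRNOG00000017800) encodes a forkhead transcription factor that the meninges need to form. It ranged from 275 over 435 to 626 CPM in gmASTRs and from 207 over 265 to 339 CPM in wmASTRs. The groups overlapped through gmASTR replicate 5, which lay below 3 of the 6 wmASTR libraries. With means of 442 ± 117 and 270.1 ± 48.3 CPM (SD, n = 6 each) the log2FC was 0.64 (SE 0.15, FDR = 0.00701). The exact permutation test gave p = 0.00866 (two-sided). This difference was the smallest of the 5 in size, and *Foxc1* was transcribed at over 200 CPM in every library of both groups.

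*Ptgds* (ENSRNOG00000015550) encodes lipocalin-type prostaglandin D synthase, an enzyme and carrier protein that leptomeninges, choroid plexus and oligodendrocytes secrete into the cerebrospinal fluid. It was the only marker near the limit of the depth. Its counts were 0 to 21 in gmASTRs and 9 to 131 in wmASTRs. Levels ran from 0 over 0.470 to 3.64 CPM in gmASTRs and from 1.25 over 5.85 to 24.1 CPM in wmASTRs. Both gmASTR replicates 3 and 5 had 0 counts, which allows up to 0.472 and 0.568 CPM, and the groups overlapped through replicates 1 and 2 of gmASTRs. The means were 1.00 ± 1.41 and 9.09 ± 9.01 CPM (SD, n = 6 each), with a log2FC of -3.22 (SE 0.91, FDR = 0.0284) and p = 0.0130 in the exact permutation test (two-sided). The call was lost without gmASTR replicate 4 (FDR = 0.0542), gmASTR replicate 6 (0.0566), wmASTR replicate 1 (0.115) or wmASTR replicate 4 (0.0687).

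The choroid plexus list, of which 3 of 12 genes had a name, was set beside *Ptgds*. *Ttr*, the transthyretin gene that marks choroid plexus epithelium, had at most 3.98 CPM in gmASTRs and 4.65 to 376 CPM in wmASTRs. The wmASTR libraries with the most *Ttr*, replicate 1 (376 CPM) and replicate 4 (88.9 CPM), were also those with the most *Ptgds*, 24.1 and 15.5 CPM. The other libraries did not follow this order throughout, as wmASTR replicate 3 had 34.7 CPM of *Ttr* and the least *Ptgds* of wmASTRs (1.25 CPM), and gmASTR replicate 5 had the most *Ttr* of gmASTRs (3.98 CPM) and 0 counts of *Ptgds*. The summed level of the list was 0.157 to 4.55 CPM in gmASTRs and 8.64 to 400.3 CPM in wmASTRs. All 3 named genes, *Ttr*, *Enpp2* and *Cldn2*, were called higher in wmASTRs. Of the 4 named oligodendrocyte genes 3, among them *Mbp* and *Mag*, were called higher in wmASTRs and *Myrf* higher in gmASTRs. The part of these cells in the *Ptgds* result was not tested.

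*Mgp* (ENSRNOG00000005695) encodes matrix Gla protein, a vitamin K-dependent inhibitor of calcification that also binds bone morphogenetic proteins (BMPs) and is made by meningeal fibroblasts and by cells of the vessel wall. In gmASTRs it ranged from 339 over 409 to 571 CPM and in wmASTRs from 782 over 1335 to 2416 CPM. The groups did not overlap, and wmASTR replicate 4 lay above all other libraries. Means were 421 ± 83.1 and 1394 ± 584 CPM (SD, n = 6 each), so that *Mgp* was 3.31 times as high in wmASTRs. The log2FC was -1.80 (SE 0.21, FDR = 1.76e-05), the smallest FDR of the 5 markers, and the exact permutation test gave p = 0.00216 (two-sided).

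Beside *Mgp*, the genes of pericytes and smooth muscle were set, of which 3 of 10 had a name and all 3, *Myh11*, *Des* and *Cspg4*, were called higher in wmASTRs. *Myh11*, the myosin heavy chain of smooth muscle, had 26.4 to 165 CPM in gmASTRs and 361 to 729 CPM in wmASTRs, and its highest library was wmASTR replicate 4, as for *Mgp*. In gmASTRs the extremes went opposite ways, since *Myh11* had 49.9 CPM in replicate 4, where *Mgp* was highest, and 154 CPM in replicate 5, where *Mgp* was lowest. The summed level of the list was 64.0 to 192 CPM in gmASTRs and 424 to 1142 CPM in wmASTRs. None of these 3 named genes was at 0 in every library of a group. The part of these cells in the *Mgp* result was not tested.

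**Figure D2:**
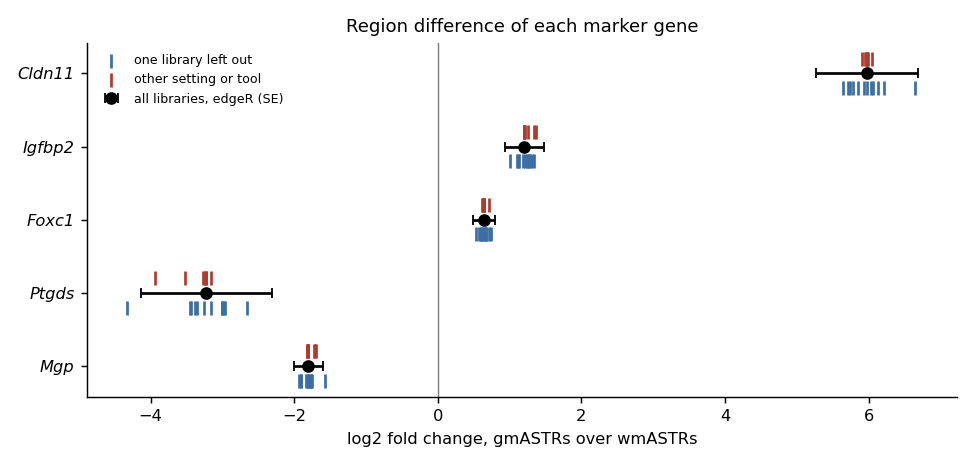
Log2 fold change of each marker gene, gmASTRs over wmASTRs, as a point with its SE, with blue ticks for fits without 1 library and red ticks for other settings or tools. Every tick lies on the same side of 0 as its point, and the ticks of *Ptgds* are spread from -4.33 to -2.66.

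The markers thus had different orders of level in both groups. In gmASTRs *Igfbp2* stood above all others, since its lowest library, 5105 CPM, lay above the highest of *Cldn11*, 3774 CPM. *Cldn11* came next by median, but its libraries overlapped those of *Foxc1* and *Mgp*, whose own medians, 435 and 409 CPM, lay within their spread. *Ptgds* was the lowest. In wmASTRs *Igfbp2* and *Mgp* overlapped at the top, followed by *Foxc1* and then by *Cldn11* and *Ptgds*, which overlapped at the bottom. Since gmASTR replicate 5 was the lowest gmASTR library for *Cldn11*, *Foxc1* and *Mgp*, the fit without it is given. All 5 markers were still called, with log2FC of 6.22 for *Cldn11*, 1.11 for *Igfbp2*, 0.74 for *Foxc1*, -2.97 for *Ptgds* and -1.76 for *Mgp*.

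Library by library, the markers did not vary together as 1 set. Correlations were computed within each group of 6 libraries only, since the groups stand apart, over 10 pairs of genes in each group and 20 in all. Of the 10 pairs, 7 had a positive Pearson's r in gmASTRs and 4 in wmASTRs. The 7 in gmASTRs include pairs with *Ptgds*, which had 0 to 21 counts there. Its r was 0.183 with *Cldn11* and 0.068 with *Foxc1*, but -0.511 and -0.866 without replicates 5 and 4. With *Igfbp2* it was 0.267, and -0.175 without replicates 4 and 2. With *Mgp* it was 0.240, and 0.961 without replicates 2 and 1. Those left out lay farthest from the median of 1 gene of the pair. In gmASTRs *Cldn11* and *Foxc1* varied together (r = 0.946, exact permutation p = 0.00139, adjusted p = 0.0278; Spearman's rho = 1.00, exact permutation p = 0.00278, adjusted p = 0.0556). All 6 libraries thus had the same order for both genes, from replicate 5 at the bottom to replicate 4 at the top. Without the 2 libraries farthest from the median of *Cldn11*, replicates 5 and 4, r was 0.871, and without replicate 5 alone it was 0.862 (exact permutation p = 0.0417).

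In gmASTRs *Mgp* had its lowest and highest levels in the same 2 libraries, with r of 0.793 with *Cldn11* (exact permutation p = 0.0639, adjusted p = 0.289) and 0.865 with *Foxc1* (exact permutation p = 0.0292, adjusted p = 0.194). Neither passed after adjustment, and without replicates 5 and 4 r was 0.778 with *Cldn11* and 0.370 with *Foxc1*. *Igfbp2* had negative r with *Cldn11* (-0.576), *Foxc1* (-0.766) and *Mgp* (-0.485) in gmASTRs, with adjusted p from 0.289 to 0.424 in exact permutation tests. Its level in gmASTR replicate 5 was 8708 CPM, the second highest, where *Cldn11* and *Foxc1* were lowest. Without replicates 5 and 4, r of *Igfbp2* with *Cldn11* was 0.121. Without replicates 4 and 2, the farthest from the median of *Igfbp2*, r was -0.733 with *Foxc1* and -0.317 with *Mgp*.

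In wmASTRs another pair stood out. *Igfbp2* and *Mgp* varied in opposite directions (r = -0.906, exact permutation p = 0.00278, adjusted p = 0.0278; rho = -0.943, exact permutation p = 0.0167, adjusted p = 0.0833). Replicate 4 had the least *Igfbp2* (751 CPM) and the most *Mgp* (2416 CPM), and replicate 3 the most *Igfbp2* (4281 CPM) and the least *Mgp* (782 CPM). Replicates 4 and 6, with the least *Igfbp2*, also had the highest summed level of the 3 named endothelial genes. This was 315 and 229 CPM, against 29.1 to 53.6 CPM in the other wmASTR libraries. In wmASTRs *Esam* reached 293 CPM, *Egfl7* at most 21.5 CPM and *Tek* at most 2.50 CPM. Both *Egfl7* and *Tek* are named after their values were seen. Replicate 4 also had the highest summed level of the 3 named pericyte and smooth muscle genes (1142 CPM) and of the 4 named microglia genes (276 CPM). The part of these cells in the relation was not tested. Without the 2 libraries farthest from the median of *Igfbp2*, replicates 4 and 6, r was -0.927, and without replicate 4 alone it was -0.784 (exact permutation p = 0.0667). *Cldn11*, *Igfbp2* and *Foxc1* had positive r with each other (0.576 to 0.685) and negative r with *Ptgds* and *Mgp* in wmASTRs, where the adjusted p of these 8 other pairs was 0.324 or higher in exact permutation tests. The signs for *Cldn11* rest on wmASTR replicates 3 and 4, without which its r was -0.386 with *Igfbp2*, 0.031 with *Foxc1*, 0.175 with *Ptgds* and 0.897 with *Mgp*. *Ptgds* and *Mgp* had r = 0.703 (exact permutation p = 0.118, adjusted p = 0.324). By rank, no pair passed after adjustment in either group, while 2 pairs in gmASTRs and 1 pair in wmASTRs passed by r before adjustment. Whether an r differed between gmASTRs and wmASTRs was not tested.

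**Figure D3:**
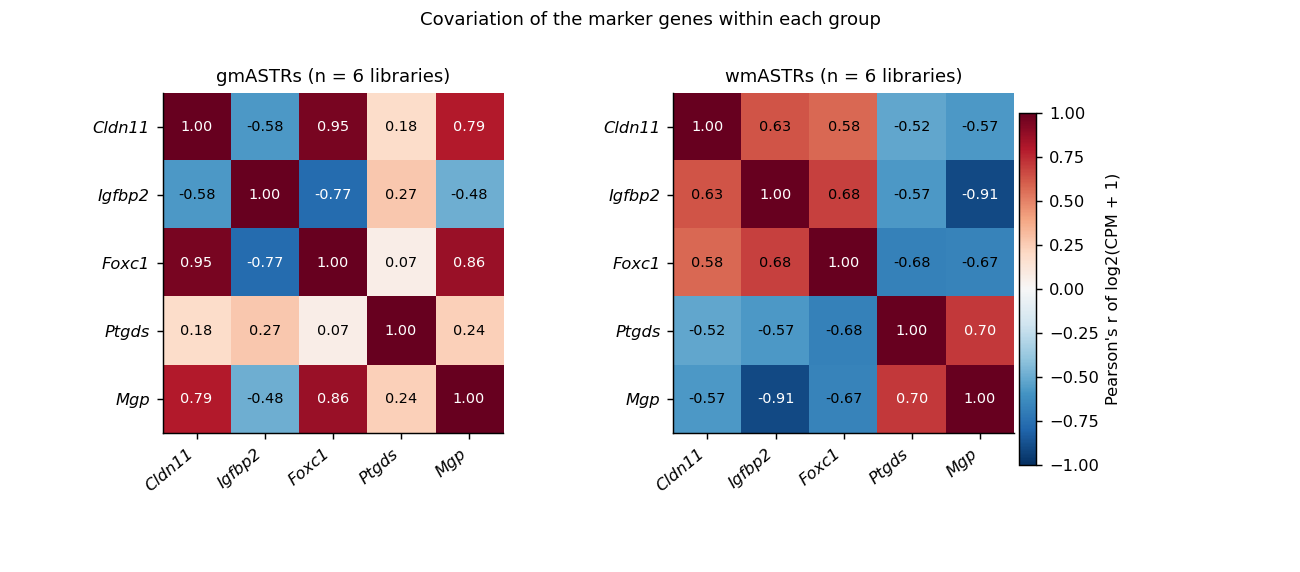
Pearson's r of log2(CPM + 1) for each pair of marker genes over the 6 gmASTR libraries (left) and the 6 wmASTR libraries (right), from blue for -1 to red for 1. The strongest pairs are *Cldn11* with *Foxc1* in gmASTRs (0.946) and *Igfbp2* with *Mgp* in wmASTRs (-0.906).

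**Figure D4:**
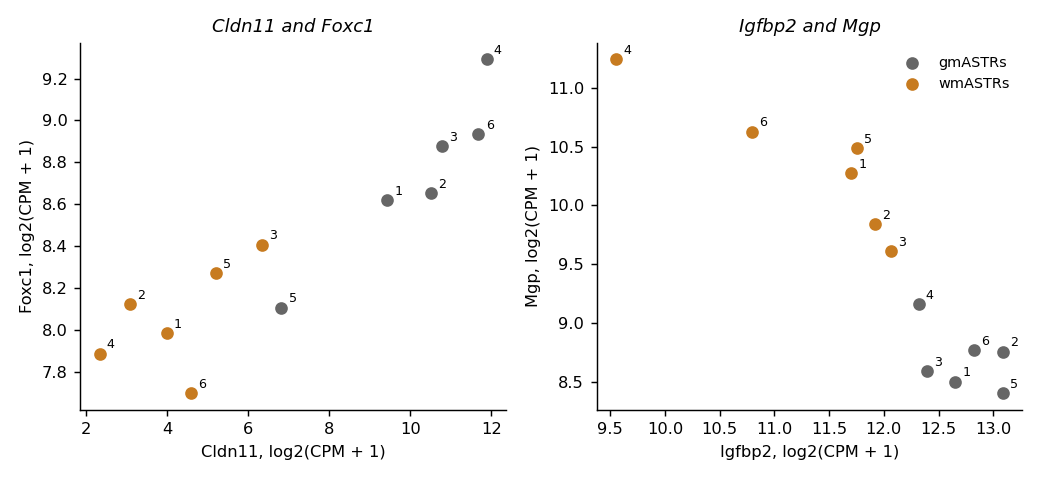
The 12 libraries by *Cldn11* and *Foxc1* (left) and by *Igfbp2* and *Mgp* (right), both axes as log2(CPM + 1), with grey points for gmASTRs, orange points for wmASTRs and the replicate number beside each. On the left the gmASTR points follow 1 order from replicate 5 to replicate 4, and on the right wmASTR replicate 4 lies apart at low *Igfbp2* and high *Mgp*.

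As *Cldn11* and *Foxc1* were the pair that varied together in gmASTRs, the 250 bases before their annotated starts are given from RefSeq (build GRCr8). The *Cldn11* sequence is chr2:114149540-114149789 on the minus strand and the *Foxc1* sequence chr17:32844101-32844350 on the minus strand. Capitals mark GGGCGG, the GC box that SP1-type factors bind.
Cldn11: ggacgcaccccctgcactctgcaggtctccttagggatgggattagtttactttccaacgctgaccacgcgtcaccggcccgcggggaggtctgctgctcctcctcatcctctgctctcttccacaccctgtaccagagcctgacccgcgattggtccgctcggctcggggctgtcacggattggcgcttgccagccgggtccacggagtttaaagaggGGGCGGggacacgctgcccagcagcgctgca
Foxc1: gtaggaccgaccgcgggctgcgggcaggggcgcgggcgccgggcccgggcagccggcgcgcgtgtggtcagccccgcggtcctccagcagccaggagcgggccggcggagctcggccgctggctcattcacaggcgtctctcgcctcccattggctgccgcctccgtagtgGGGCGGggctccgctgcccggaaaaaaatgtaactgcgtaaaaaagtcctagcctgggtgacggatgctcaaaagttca

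The GC box began 31 bases before the start in *Cldn11* and 79 bases before it in *Foxc1*. The promoters of *Igfbp2* and *Ptgds* held it too, in *Ptgds* as 2 overlapping copies on the other strand, so that it was present in all 4 promoters found, on either strand. It is common, as 30.5% of the 33469 rat promoters of this length held it. The 4 promoters had a GC content of 64.8% (*Cldn11*), 64.0% (*Igfbp2*), 70.0% (*Foxc1*) and 62.0% (*Ptgds*), against a median of 51.2% over all promoters. In addition, 5 motifs were searched on both strands. CACGTG, an E-box, occurred in *Igfbp2* alone of the 4 and in 5.59% of all promoters, and AGGTCA, a nuclear receptor half-site, in *Ptgds* alone and in 14.1%. None of the 4 windows held TATAAA (the TATA box, in 12.9% of all promoters), the forkhead core TAAACA (in 12.1%) or the SOX core ACAAAG (in 16.3%). A match is a description of the letters and no sign of binding. *Mgp* had no entry.

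The genes most like each marker were sought among the genes with a name and a mean of at least 10 CPM, by the r over the 12 libraries after the mean of each group was subtracted. For *Cldn11* these were *Nnat* (r = 0.977), *Slc4a4* (0.939) and *Myh14* (0.934) of 1022 genes. *Nnat* encodes neuronatin, *Slc4a4* a sodium bicarbonate cotransporter and *Myh14* a non-muscle myosin heavy chain. All 3 were also called higher in gmASTRs, with log2FC of 1.95, 2.29 and 2.45. For *Foxc1* they were *Igsf3* (0.957), *Ccdc8* (0.941) and *Alcam* (0.928), all called higher in gmASTRs too. A log2FC above 0 was found for 91.3% of all named genes, against 49.7% of all genes tested. Directions among the genes most like a marker thus depend on which genes have names.

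For *Igfbp2* the genes most like it were *Pamr1* (r = 0.924), *Ntng1* (0.913) and *Lepr* (0.889), of which *Lepr*, the leptin receptor gene, was not called (FDR = 0.0845). *Ptgds* was most like *Tf* (0.932), the transferrin gene of oligodendrocytes and choroid plexus, at 6.66 ± 2.75 CPM in gmASTRs against 82.9 ± 45.8 in wmASTRs (SD, n = 6 each), followed by *Gja5* (0.776) and *Ugt1a* (0.752). *Tf* had its highest levels in wmASTR replicates 1 and 4, as did *Ptgds*. For *Mgp* the values were lower, with *Alx1* (0.811), *Slc6a6* (0.766) and *Scg2* (0.748). These 3 had log2FC above 0, as most named genes did, where *Mgp* had one below 0. These values carry no test, share the same 12 libraries, and concern only the genes that have a name here.

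Other meningeal genes were counted from lists. Only 71 of the 237 list genes had a name, and of these 23 were called higher in gmASTRs and 26 higher in wmASTRs. Of all named genes 91.3% had a log2FC above 0, against 49.7% of all genes tested. Counts of calls and counts by direction thus depend on which genes have names. Of 15 transcription factors of meningeal cells 10 had a name, the marker *Foxc1* among them. Counting *Foxc1*, 5 were called, all higher in gmASTRs, and the median log2FC of the 10 was 1.31. *Foxd1* had 343 ± 150 CPM in gmASTRs against 67.3 ± 29.3 in wmASTRs (SD, n = 6 each; log2FC 2.28, SE 0.27, FDR = 2.09e-05). As for *Cldn11*, the groups did not overlap. *Foxp2* was called as well (1.75, FDR = 0.0253), whereas *Tbx18*, at 254 ± 45.5 and 178 ± 44.1 CPM and named after its values were seen, was not (FDR = 0.0735).

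Of 17 arachnoid barrier genes 7 had a name, and 4 were called, all higher in gmASTRs. Beside *Cldn11* these were *Cdh1*, *Gjb2* and *Klf5*. *Cdh1* encodes E-cadherin, the adhesion protein of epithelia and arachnoid barrier cells, and had 886 ± 423 CPM in gmASTRs against 26.2 ± 43.8 in wmASTRs (SD, n = 6 each; log2FC 5.01, SE 0.80, FDR = 0.000350). Its groups overlapped, with 87.3 CPM in gmASTR replicate 5 against 114 CPM in wmASTR replicate 3, the same libraries that lay nearest each other for *Cldn11*. *Gjb2*, a gap junction gene, had a log2FC of 2.46 (FDR = 3.51e-05), and *Klf5*, an epithelial transcription factor, 1.91 (FDR = 0.0329). *Krt8*, a keratin, *Dsp*, a desmosome protein, and *Ocln*, occludin of tight junctions, had log2FC of 1.24, 1.71 and 0.99 and were not called (FDR = 0.180, 0.224 and 0.438). The summed level of the 6 named genes other than *Cldn11* was 148 to 1601 CPM in gmASTRs and 25.5 to 170 CPM in wmASTRs, which overlapped through gmASTR replicate 5 and wmASTR replicate 3. With *Cldn11* it was 260 to 4878 CPM and 34.6 to 249 CPM.

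Of 24 pial and meningeal fibroblast genes 8 had a name, with 3 called higher in gmASTRs and 2, *Mgp* and *Lama1*, higher in wmASTRs. *Nnat*, described above, *Alcam*, an adhesion protein of the immunoglobulin family, and *Col3a1*, a fibrillar collagen, were higher in gmASTRs, with log2FC of 1.95, 1.27 and 0.62. *Lama1*, a laminin chain of the pial basement membrane named after its values were seen, was higher in wmASTRs (log2FC -1.22, FDR = 0.0417). The summed level of the 7 named genes other than *Mgp* was 1590 to 3110 CPM in gmASTRs and 945 to 1599 CPM in wmASTRs, which overlapped through gmASTR replicate 1. With *Mgp* it was 1952 to 3681 CPM and 2373 to 3515 CPM. Of 11 genes of arachnoid transport and retinoic acid 4 had a name. Apart from *Igfbp2* and *Ptgds*, neither of the other two, *Aldh1a2*, the enzyme that makes retinoic acid, and *Crabp2*, which carries it, was called (FDR = 0.189 and 0.0769, both named after their values were seen).

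The pathways of the markers were mixed in direction. Of 29 claudin and tight junction genes 4 had a name. *Cldn2*, a claudin of choroid plexus, went opposite to *Cldn11*, with at most 0.610 CPM in gmASTRs and 0.831 to 17.9 CPM in wmASTRs (log2FC -5.32, SE 1.04, FDR = 0.00198).

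In the insulin-like growth factor axis 8 of 20 genes had a name, 4 called higher in gmASTRs and 2 in wmASTRs. Like *Igfbp2*, the binding protein *Igfbp6* (log2FC 1.92) and the receptor *Igf2r* (0.98) were higher in gmASTRs, while *Igfbp7*, a secreted protein related to them, was higher in wmASTRs (-1.22). Among those named after their values were seen, *Igfbp4* was higher in gmASTRs (2.56, FDR = 0.00597), and the ligand *Igf1* was higher in wmASTRs (-1.94, FDR = 0.00437) with 7.77 ± 4.79 and 28.7 ± 9.75 CPM (SD, n = 6 each). The ligand *Igf2*, also named after its values were seen, was not called (1.03, FDR = 0.107).

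In the prostaglandin pathway 6 of 24 genes had a name, 2 called higher in gmASTRs and 3 in wmASTRs. *Ptgis*, the prostacyclin synthase gene, went opposite to *Ptgds* with 89.4 ± 42.8 CPM in gmASTRs against 8.37 ± 8.46 in wmASTRs (SD, n = 6 each; log2FC 3.32, FDR = 0.000812). The prostaglandin F receptor gene *Ptgfr* was higher in gmASTRs (4.35), and the prostacyclin receptor gene *Ptgir* was higher in wmASTRs (-2.35). *Ptgs2*, the inducible cyclooxygenase gene that acts before both synthases, was higher in wmASTRs (-0.89, FDR = 0.0319, named after its values were seen).

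Of 25 genes of BMP signalling, whose ligands matrix Gla protein can bind, 5 had a name. *Grem1*, a secreted BMP antagonist, moved as *Mgp* did, with 363 ± 277 CPM in gmASTRs against 3385 ± 1528 in wmASTRs (SD, n = 6 each; log2FC -3.27, SE 0.42, FDR = 4.53e-05). The BMP target genes *Id1* (0.78) and *Id3* (0.47) were higher in gmASTRs, and *Bmp4* was not called (-0.79, FDR = 0.0903, named after its values were seen). Of 11 genes of Gla proteins and mineralization 2 had a name, *Mgp* and *Spp1*, the osteopontin gene, and both were higher in wmASTRs.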

How the data were processed

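RNA of 6 gmASTR and 6 wmASTR cultures was sequenced as 3′ mRNA libraries. Reads were aligned with HISAT (0.1.5), sorted with SAMtools (1.2) and counted on rat Ensembl genes with HTSeq (0.6.1p1), without strand. The authors deposited raw counts, not normalized, for 17941 genes, and for the 9394 genes that passed their filter, with identical counts. *Ptgds* is not in the filtered table, so the unfiltered table was used. Overlapping and near-identical genes cannot be told apart by unstranded counting. The sources here do not say whether duplicate reads were removed, so limits from 3 counts cover counting error only.

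From these counts CPM of library totals were computed, and genes with at least 10 counts over the 12 libraries were tested with edgeR (4.0.16) in R (4.3.3): TMM scaling, the quasi-likelihood test and no covariate beside the group, Benjamini-Hochberg adjustment over 13618 genes, called at FDR under 0.05. Depth was 4920488 to 7207118 counts per library. No 2 libraries of a group agreed within counting noise. Exact permutation tests on log2(CPM + 1) were two-sided, over 924 divisions of the libraries or all orders of 6 libraries, with adjustment over 20 correlations. Alternatives used DESeq2 (1.42.0), limma (3.58.1), other scalings and filters, the replicate number as a block, and each library left out in turn. Leave-one-out and scaling alternatives for 2 single correlations were chosen after seeing the data. The edgeR procedure was also run on simulated data, whose outcome is not given here.

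The counts carry Ensembl identifiers only. The study's additional file gave names for 2085 genes, 2000 beside an identifier and 85, *Mgp* among them, joined by 12 CPM values within 0.2% or 0.5 counts. The 5 markers and the gene lists were chosen with earlier results of these data known. Other genes are named by rule: up to 3 called genes per list with the smallest FDR, the arachnoid barrier genes, the 3 genes most like each marker, *Gfap* and *Aqp4*. *Gja1* and the genes marked in the text were named after values were seen. Some list genes are counted but not reported here by name. P-values measure the spread between these culture preparations.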

Additional observations from a re-analysis of the deposited data

How the results depend on the processing

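All 5 markers kept their direction under every alternative that tested them. Over 8 other settings the log2FC was 5.90 to 6.05 for *Cldn11*, 1.201 to 1.362 for *Igfbp2*, 0.62 to 0.71 for *Foxc1* and -1.82 to -1.69 for *Mgp*, all called, and over 7 settings -3.94 to -3.16 for *Ptgds*, which the authors' filtered table does not hold. Over the fits without 1 library it was 5.64 to 6.64, 1.00 to 1.34, 0.53 to 0.74, -1.93 to -1.57 and, for *Ptgds*, -4.33 to -2.66 with FDR from 0.00840 to 0.115, where 4 of 12 fits lost the call. Genes called numbered 1176, 1153 to 1521 over other settings, and 925 to 1615 without 1 library, the highest without gmASTR replicate 5. Without scaling, the median log2FC of all genes was 0.057, and the share of calls higher in gmASTRs was 54.5% against 45.0%. List genes called higher numbered 18 to 27 in gmASTRs and 19 to 27 in wmASTRs without 1 library, against 23 and 26. Positive pairs of markers numbered 5 to 8 in gmASTRs without 1 library, against 7.

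Blocked by replicate number, the log2FC was 5.95 for *Cldn11*, 1.36 for *Igfbp2*, 0.63 for *Foxc1*, -1.71 for *Mgp* and -3.94 for *Ptgds*, and 1153 genes were called. What the numbers mark is not stated. Deviations of libraries with the same number had correlations from -0.0440 to 8.61e-06, and none correlated best with its own number, so the values do not show a pairing.

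Depth limits *Ptgds* most, which had 0 or 1 count in 3 gmASTR libraries.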

Other observations

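Other cell types had fewer named genes, listed here beside the markers without a test of their part in any result. Of 10 microglia genes 4 had a name, and all 4, *C1qa*, *C1qb*, *Cd68* and *Aif1* (the last named after its values were seen), were called higher in wmASTRs, with a summed level of 3.48 to 54.9 CPM in gmASTRs and 85.4 to 276 CPM in wmASTRs. *C1qa*, which encodes a chain of complement C1q, had 21.3 ± 15.7 CPM in gmASTRs and 99.0 ± 56.3 in wmASTRs (SD, n = 6 each). Of 10 endothelial genes 3 had a name, and *Esam*, an adhesion protein of endothelial junctions, was called higher in wmASTRs (log2FC -3.66, FDR = 0.000349), at 2.90 to 12.6 CPM in gmASTRs and 21.7 to 293 CPM in wmASTRs. The summed level of the endothelial genes was 7.92 to 28.2 CPM and 29.1 to 315 CPM, while *Egfl7* and *Tek* were not called (FDR = 0.636 and 0.754). Of 8 ependymal genes *Rarres2*, which encodes chemerin, was the only one with a name and was higher in gmASTRs (log2FC 0.92, FDR = 0.0225). Of the 6 named astrocyte genes 3, *Gfap*, *Aqp4* and *Slc1a3*, were called higher in wmASTRs, while *Gja1*, *Aldoc* and *Fgfr3* were not called.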
